A study of Homo sapiens with 32 samples.

Results

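Heat shock chaperones bind unfolded or newly made proteins and help them to fold, to cross membranes or to be degraded. The HSP70 proteins take up their clients with the help of J-domain proteins and release them with the help of nucleotide exchange factors, while HSP90, the small heat shock proteins and the mitochondrial HSP60 and HSP10 act on other clients or at other steps. Many of these genes carry heat shock elements in their promoters, which the transcription factor HSF1 binds when unfolded proteins accumulate, and several are also transcribed at a high level in unstressed dividing cells. Here 10 such genes, given by name, were followed in human granulosa cells exposed to perfluorooctane sulfonate (PFOS), a persistent surfactant. All 10 were among the 18583 genes with values. They were the inducible HSP70 genes HSPA1A and HSPA1B, the constitutive HSP70 gene HSPA8, HSPH1 of the HSP110 family, the J-domain protein gene DNAJB1, the cochaperone gene BAG3, the small heat shock protein gene HSPB1, HSP90AA1, and the mitochondrial chaperonin genes HSPD1 (HSP60) and HSPE1 (HSP10). Because HSPA1A and HSPA1B are nearly identical, their sum was followed as well.

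After 6 weeks, edgeR, a test for count data, called 6 of the 10 transcripts lower with 0.1 µM PFOS and 5 with 1 µM PFOS than in the vehicle control, with changes from -8.9% to -20.2%, beside 2.69% and 0.148% of all genes that were called lower. It called none with 0.01 µM. After 12 weeks, edgeR called 1 lower with 0.1 µM PFOS, HSPA1B, beside 0.542% of all genes, and none at the other concentrations. Summed with the nearly identical HSPA1A, HSPA1B was not called by edgeR there (edgeR adjusted p = 0.0622). DESeq2 called 2 with 0.1 µM and 1 with 1 µM, beside 278 and 90 of 16901 genes in either direction. In a single edgeR fit of all 32 libraries of both times, 2 chaperones were called lower with 0.1 µM and 2 with 1 µM at 6 weeks, and 3 and 2 at 12 weeks. Over all genes that fit called 49 and 5 at 6 weeks and 540 and 136 at 12 weeks. With the libraries of each time fitted alone, 544 and 36 genes were called at 6 weeks and 136 and 28 at 12 weeks. The counts of chaperones and of all genes thus depended on the libraries fitted together. Whether the effect differed between the times was tested as an interaction, which edgeR called for no chaperone, beside 0% to 0.208% of all genes. The limma test on TPM called it for 2 with 1 µM, beside 605 of all genes. HSPB1 was called higher at 12 than at 6 weeks in every exposure group, beside 14.2% to 21.4% of all genes.

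The cells were HGrC1, an immortalized line of nonluteinized human granulosa cells, the somatic cells that surround the oocyte. A total of 32 RNA libraries were made, 4 for each of 8 groups: a vehicle control with 0.05% DMSO and PFOS at 0.01, 0.1 and 1 µM, each after 6 and after 12 weeks, with PFOS added again at every passage. All groups, controls included, were kept in medium with 10% serum and 100 nM of a hormone, which the labels name as estradiol and the study's methods as testosterone. The 4 replicates of a group came from 4 separately frozen vials of 1 line, and the cells of each vial were divided over the exposures. Total counts per library lay between 17907057 and 18553350. In RNA of a whole culture, fewer cells that express a transcript and less of it per cell cannot be told apart.

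Of 10 granulosa cell markers, WT1 had 1012 to 1450 counts per library and GATA4 2040 to 2816, whereas FOXL2 had 10 to 37, AMHR2 0 to 3 and CYP19A1 0 to 1, and FSHR had no values. The summed counts of the 9 markers with values were 3524 to 4346. The endothelial markers together had 63 to 251 counts, the leukocyte markers 250 to 507, mainly CD68, and the theca and stroma markers 731 to 1213, mainly LUM, with CYP17A1 at 0 to 1. The endothelial markers had 158 to 251 counts at 6 weeks and 63 to 145 at 12 weeks, without overlap, and the leukocyte markers 354 to 507 and 250 to 431. A list of 6 liver transcripts (AFP, ALB, AHSG, APOB, GPC3 and AMBP) differed between groups as well. Their summed counts were 0 to 1 in the control and the 0.01 µM libraries of 6 weeks, 89 to 141 with 0.1 µM and 88 to 115 with 1 µM at 6 weeks, and 72 to 919 at 12 weeks, where replicate 3 of the control held the 919 and stood apart from the other libraries, which had at most 174.

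Transcript levels of the 10 chaperones spanned a wide range. In TPM, transcripts per 1000000 transcripts, a unit that takes gene length into account, HSPB1 had a mean of 2760.5 over the 32 libraries and ranked 51st of all genes, HSPA8 had 1184 and HSP90AA1 604.5. HSPE1 followed with 528.7 TPM, HSPD1 with 343.8, HSPA1A with 247.6, HSPA1B with 199.7, DNAJB1 with 108.2, BAG3 with 66.7 and HSPH1 with 44.6. The ranges of neighbours in this order did not overlap, except for HSP90AA1 and HSPE1, HSPA1A and HSPA1B, and BAG3 and HSPH1. Within a library HSP90AA1 was above HSPE1 in 29 of 32 libraries, and the 8 other neighbours kept their order in 32 of 32. All 10 passed the filter on low counts in every comparison, and together they took 0.459% to 0.611% of all counts. No transcript varied much: the highest library exceeded the lowest by 1.23-fold (HSPD1) to 1.58-fold (HSPA1B) in CPM, counts per 1000000 counts of a library. The counts of HSPA1A and HSPA1B were not whole numbers in 31 libraries each, since reads that match both were divided between them by estimation, and HSPA1A took 51.8% to 55.8% of their sum. The counts of HSPE1 were not whole in 27 libraries. Its readthrough gene HSPE1-MOB4 had 0 to 25.8 counts, against 1611 to 2374 for HSPE1. The counts of the other 7 genes were whole in all 32 libraries.

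HSPA1A (chromosome 6, 31815543 to 31817942 in GRCh38.p14) and HSPA1B (chromosome 6, 31827738 to 31830254) are neighbours, and HSPD1 (chromosome 2, 197486584 to 197500274) and HSPE1 (chromosome 2, 197500379 to 197503449) lie head to head, with starts 105 bases apart. The others are HSPA8 on chromosome 11 (123057489 to 123062462), HSPH1 on chromosome 13 (31134973 to 31162388), DNAJB1 on chromosome 19 (14514769 to 14560391), BAG3 on chromosome 10 (119651380 to 119677819), HSPB1 on chromosome 7 (76302673 to 76304292) and HSP90AA1 on chromosome 14 (102080742 to 102139749). RefSeq promoters of GRCh38.p14, from 250 bases before to 50 after each start, were searched for the heat shock element. Its form with 2 units, GAANNTTC or TTCNNGAA, was in 13.5% of 35116 promoters, and its form with 3 units, either of these followed after NN by its first 3 letters, which contains the former, was in 0.49%, on either strand. All 10 genes had an entry, with 14 promoters in all. A match with 2 units was in a promoter of 7 genes and one with 3 units in a promoter of HSPA8, HSP90AA1 and HSPD1, whereas these letters were not in the windows of BAG3, HSPH1 and HSPE1. Counted by promoter, as in the shares above, 8 of the 14 held a match with 2 units and 3 held one with 3 units. HSPA8 held TTCTGGAAGGTTC starting 55 bases before its start and HSPD1 held TTCTGGAAAGTTC starting 245 bases before the more internal of its 2 starts. The sequences before the starts of 5 genes are shown 5′ to 3′ because they include the 3 genes lowered most with 1 µM PFOS after 6 weeks (DNAJB1, HSPA1B and HSPA1A), HSPB1, which was higher at 12 weeks, and HSP90AA1, with a match of 3 units. Where a gene has several starts, the one with most matches is used, which is 14518397 of 3 starts for DNAJB1 and 102087044 of 2 for HSP90AA1. Each sequence runs up to the base before the start except that of DNAJB1, which stops short of it, where an annotated UTR begins. Capitals mark the matches, and a match is a description of the letters only.
HSPA1A (chr6:31815293-31815542, plus strand): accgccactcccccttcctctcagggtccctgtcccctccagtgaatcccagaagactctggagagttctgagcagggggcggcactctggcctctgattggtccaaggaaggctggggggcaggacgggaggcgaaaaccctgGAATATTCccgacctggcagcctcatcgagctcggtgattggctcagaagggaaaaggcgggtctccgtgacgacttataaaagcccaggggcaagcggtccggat
HSPA1B (chr6:31827488-31827737, plus strand): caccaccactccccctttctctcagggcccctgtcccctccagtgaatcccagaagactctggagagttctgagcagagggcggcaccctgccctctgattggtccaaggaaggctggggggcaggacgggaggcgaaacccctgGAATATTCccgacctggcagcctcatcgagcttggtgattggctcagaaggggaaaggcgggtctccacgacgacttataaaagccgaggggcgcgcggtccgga
DNAJB1 (chr19:14518408-14518647, minus strand): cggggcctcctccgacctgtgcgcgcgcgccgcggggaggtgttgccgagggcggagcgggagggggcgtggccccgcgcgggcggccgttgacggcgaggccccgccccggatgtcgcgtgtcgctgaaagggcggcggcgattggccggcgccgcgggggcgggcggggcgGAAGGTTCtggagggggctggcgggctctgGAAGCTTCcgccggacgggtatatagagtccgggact
HSPB1 (chr7:76302423-76302672, plus strand): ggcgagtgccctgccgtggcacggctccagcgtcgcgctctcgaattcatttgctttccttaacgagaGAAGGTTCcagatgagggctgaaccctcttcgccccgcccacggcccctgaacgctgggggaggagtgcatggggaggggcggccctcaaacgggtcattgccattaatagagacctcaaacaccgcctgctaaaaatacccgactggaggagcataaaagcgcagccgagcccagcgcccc
HSP90AA1 (chr14:102087045-102087294, minus strand): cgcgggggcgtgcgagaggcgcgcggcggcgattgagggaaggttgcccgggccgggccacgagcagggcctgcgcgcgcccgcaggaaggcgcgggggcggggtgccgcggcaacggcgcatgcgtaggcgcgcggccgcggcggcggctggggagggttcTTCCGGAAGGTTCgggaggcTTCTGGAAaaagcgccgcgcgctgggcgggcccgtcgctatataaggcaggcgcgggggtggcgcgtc
The HSPA1A and HSPA1B sequences were identical at 235 of 249 aligned bases (94.4%), and both hold GAATATTC, starting 106 and 105 bases before the start. Counted from the starts given above, DNAJB1 holds GAAGGTTC 77 bases and GAAGCTTC 47 bases before its start, HSPB1 holds GAAGGTTC 182 bases before, and HSP90AA1 holds TTCCGGAAGGTTC 88 bases and TTCTGGAA 68 bases before.

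**Figure D1:**
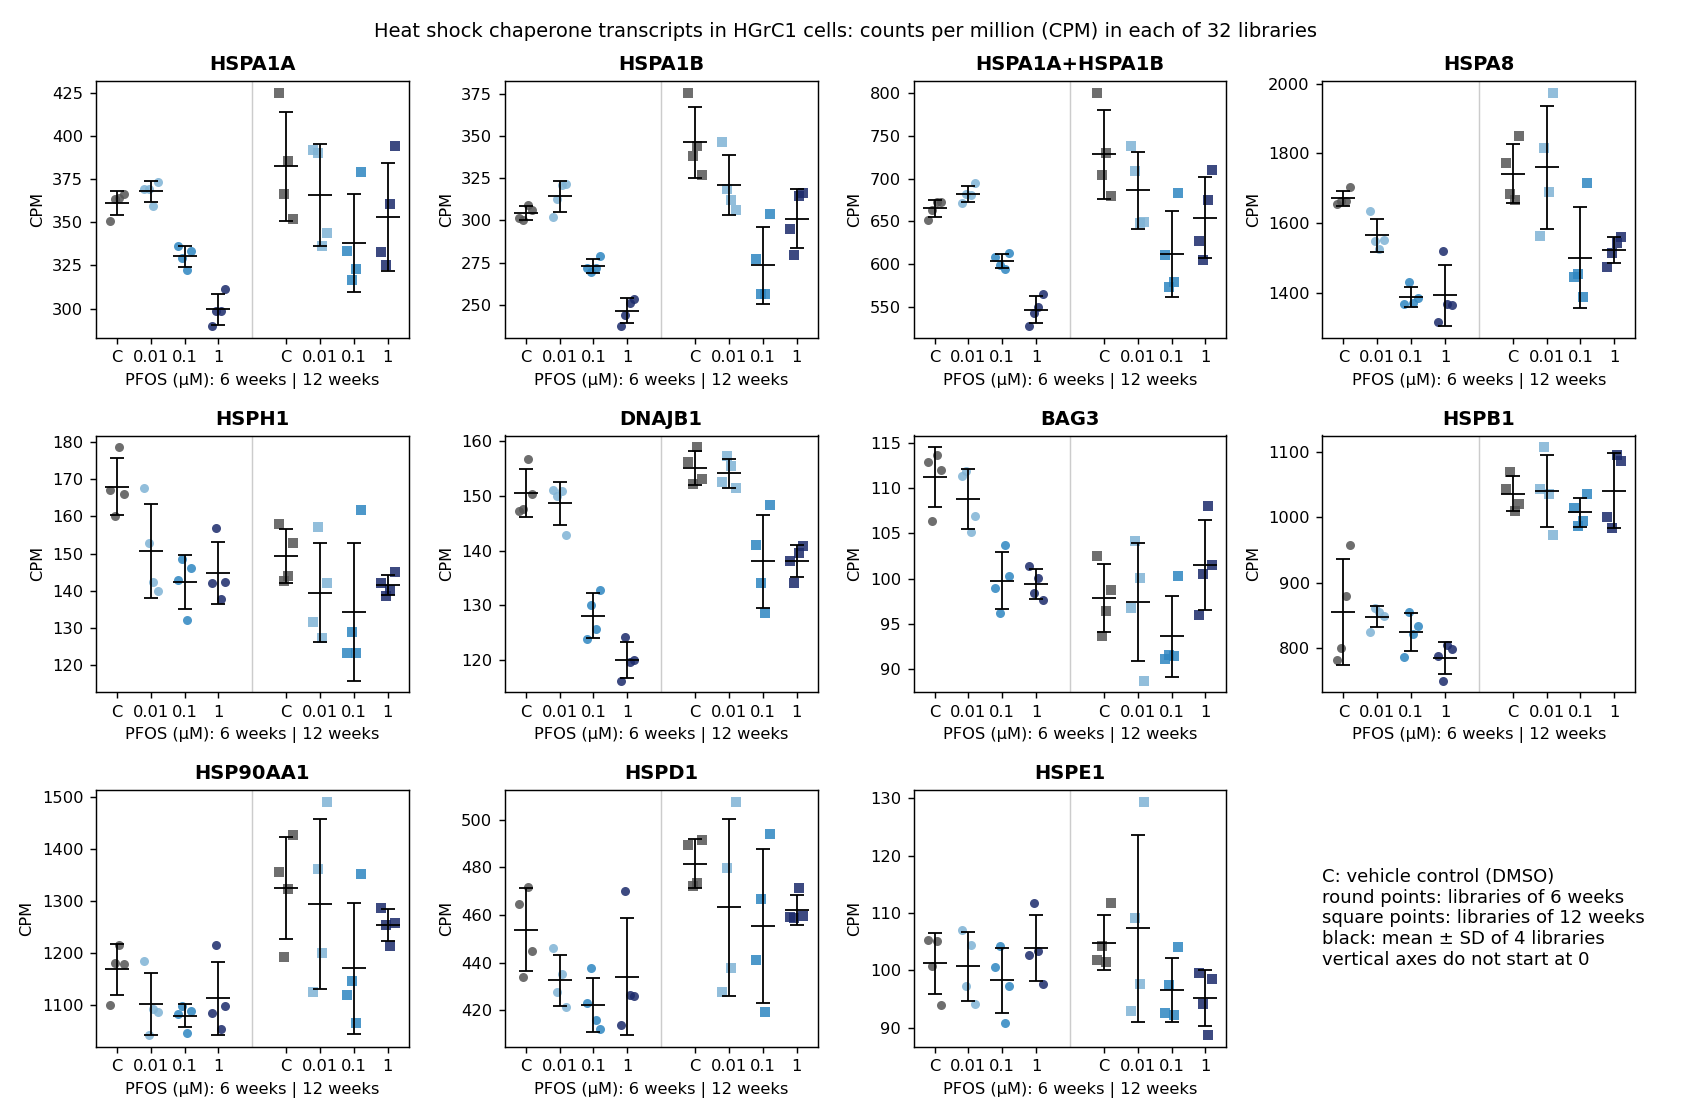
CPM (vertical axes, not starting at 0) of the 10 chaperone genes and of HSPA1A plus HSPA1B in the 32 libraries, by PFOS concentration (C is the vehicle control) after 6 weeks (round points) and 12 weeks (square points). Black bars are the mean ± SD of 4 libraries. For HSPA1A, HSPA1B, HSPA8, DNAJB1 and BAG3 all libraries of 0.1 and 1 µM at 6 weeks lie below the 4 controls, and for HSPA1A, HSPA1B and DNAJB1 with 0.1 µM the libraries of 12 weeks are more scattered than those of 6 weeks.

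To find which chaperone transcripts responded to 6 weeks of exposure, each concentration was compared with the control of the same time by edgeR's quasi-likelihood test, with Benjamini-Hochberg adjustment over all 12836 genes tested and a call at an adjusted p at or under 0.05. With 0.1 µM PFOS, 6 of the 10 genes fell (HSPA1A, HSPA1B, HSPA8, HSPH1, DNAJB1 and BAG3) and none rose, beside 2.69% of all genes tested that were called lower and 1.55% higher. With 1 µM, 5 fell (the same but HSPH1) and none rose, beside 0.148% of all genes, or 19 genes in all, that were called lower and 0.132% higher. With 0.01 µM no chaperone was called by edgeR, DESeq2 or limma, and 2 had an unadjusted p under 0.05, beside 1232 of all genes. No chaperone changed 2-fold, so none was a differentially expressed gene (DEG) under the study's threshold, beside 0.0857% and 0.039% of all genes with 0.1 and 1 µM. The median log2 fold change of the 10 genes was -0.03, -0.15 and -0.19 at 0.01, 0.1 and 1 µM, against 0.0021, 0.0004 and -0.0011 for all genes. In 7 chaperones with 0.1 µM and in 6 with 1 µM, all 4 exposed libraries were below all 4 controls, as were 5.78% and 4% of all genes.

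HSPA1A and HSPA1B encode the stress-inducible cytosolic HSP70. HSPA1B had 301.2, 300.4, 309 and 306.1 CPM in the controls of 6 weeks (mean 304.2 ± 4.09, SD, n = 4), 272, 269.5, 271.9 and 278.9 with 0.1 µM PFOS, and 237.2, 243.6, 251.2 and 253.5 with 1 µM. The 3 groups did not overlap and lay in the order of the concentrations. HSPA1B fell by 0.16 on the log2 scale (SE 0.03, edgeR adjusted p = 0.00802) with 0.1 µM and by 0.30 (SE 0.03, edgeR adjusted p = 4.57e-06) with 1 µM, where it had the second lowest p of all genes. HSPA1A had 350.6, 363.2, 363.7 and 366.4 CPM in the controls, 336, 329.4, 322.3 and 333.5 with 0.1 µM, and 289.8, 298.8, 298.7 and 311.6 with 1 µM. Again the groups did not overlap, and the log2 fold changes were -0.13 (edgeR adjusted p = 0.0177) and -0.27 (edgeR adjusted p = 9.64e-06). The sum of both genes, which does not depend on how shared reads were divided, went from 665.2 ± 9.85 CPM in the controls to 603.4 ± 8.3 with 0.1 µM and 546.1 ± 15.8 with 1 µM (SD, n = 4 each), a decrease of 9.7% (edgeR adjusted p = 0.0102) and of 17.8% (edgeR adjusted p = 4.59e-06). With 0.01 µM the sum was 682.2 ± 9.77 CPM, 2.3% above the control (edgeR adjusted p = 0.774), and its libraries overlapped with the controls.

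HSPA8, the constitutive HSP70 that also drives clathrin uncoating, had 1654, 1663, 1664 and 1703 CPM in the controls of 6 weeks. It had 1366, 1429, 1371 and 1384 CPM with 0.1 µM PFOS and 1316, 1519, 1367 and 1365 CPM with 1 µM. All exposed libraries of both concentrations lay below all controls, and replicate 2 with 1 µM was nearest to them. HSPA8 fell by 17.3% with 0.1 µM (log2 fold change -0.27, SE 0.04, edgeR adjusted p = 0.000188) and by 16.6% with 1 µM (log2 fold change -0.26, SE 0.04, edgeR adjusted p = 0.000347). With 0.01 µM it had 1525 to 1633 CPM, also below every control, as for 1.6% of all genes, but this difference of 6.7% was not called (edgeR adjusted p = 0.462, exact two-sided permutation p = 0.0286, the smallest that 4 against 4 libraries allow). HSPH1, an HSP110 protein that acts as nucleotide exchange factor of HSP70, had 167.1, 160.1, 178.6 and 166.1 CPM in the controls, 143, 148.4, 132.1 and 146.1 with 0.1 µM, and 142.2, 156.9, 137.7 and 142.4 with 1 µM. Both exposed groups lay below the controls. HSPH1 fell by 15.6% with 0.1 µM (edgeR adjusted p = 0.0195), and its difference of -13.7% with 1 µM was not called (edgeR adjusted p = 0.1), while DESeq2 called it (adjusted p = 0.0183).

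Both cochaperones of HSP70 among the 10 were lower as well. DNAJB1, which stimulates the ATPase of HSP70 and hands it clients, had 147.3, 147.6, 156.8 and 150.4 CPM in the controls of 6 weeks, 123.8, 130, 125.6 and 132.8 with 0.1 µM PFOS, and 116.2, 124.1, 119.6 and 120 with 1 µM. Both exposed groups lay below the controls, and those with 0.01 µM (142.8 to 151) overlapped with them. DNAJB1 fell by 15.3% with 0.1 µM (log2 fold change -0.24, SE 0.04, edgeR adjusted p = 0.00054) and fell by 20.2% with 1 µM (log2 fold change -0.33, SE 0.04, edgeR adjusted p = 4.57e-06). BAG3, which links HSP70 to small heat shock proteins and to selective autophagy, had 112.9, 106.4, 113.6 and 112 CPM in the controls, 99.0, 96.2, 103.7 and 100.3 with 0.1 µM, and 101.4, 98.4, 100.1 and 97.7 with 1 µM. It fell by 10.7% with 0.1 µM (edgeR adjusted p = 0.0131) and by 10.5% with 1 µM (edgeR adjusted p = 0.0377), and neither exposed group overlapped with the controls.

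The remaining 4 genes were not called at any concentration at 6 weeks. HSPB1, an ATP-independent chaperone that holds unfolded proteins, had 781.8 to 958.2 CPM in the controls, the widest spread of the 10 genes there, and 785.9 ± 24.4 with 1 µM PFOS (SD, n = 4, log2 fold change -0.12, SE 0.05, edgeR adjusted p = 0.29). HSP90AA1, the inducible cytosolic HSP90, had 1099.6 to 1215 CPM in the controls and 1046.5 to 1098 with 0.1 µM, which did not overlap (log2 fold change -0.12, SE 0.04, edgeR adjusted p = 0.112). HSPD1, which folds proteins in the mitochondrial matrix, had log2 fold changes of -0.11 (SE 0.04, edgeR adjusted p = 0.0906) and -0.06 (SE 0.04, edgeR adjusted p = 0.492) with 0.1 and 1 µM, and its partner HSPE1 had -0.05 (SE 0.05) and 0.04 (SE 0.05).

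**Figure D2:**
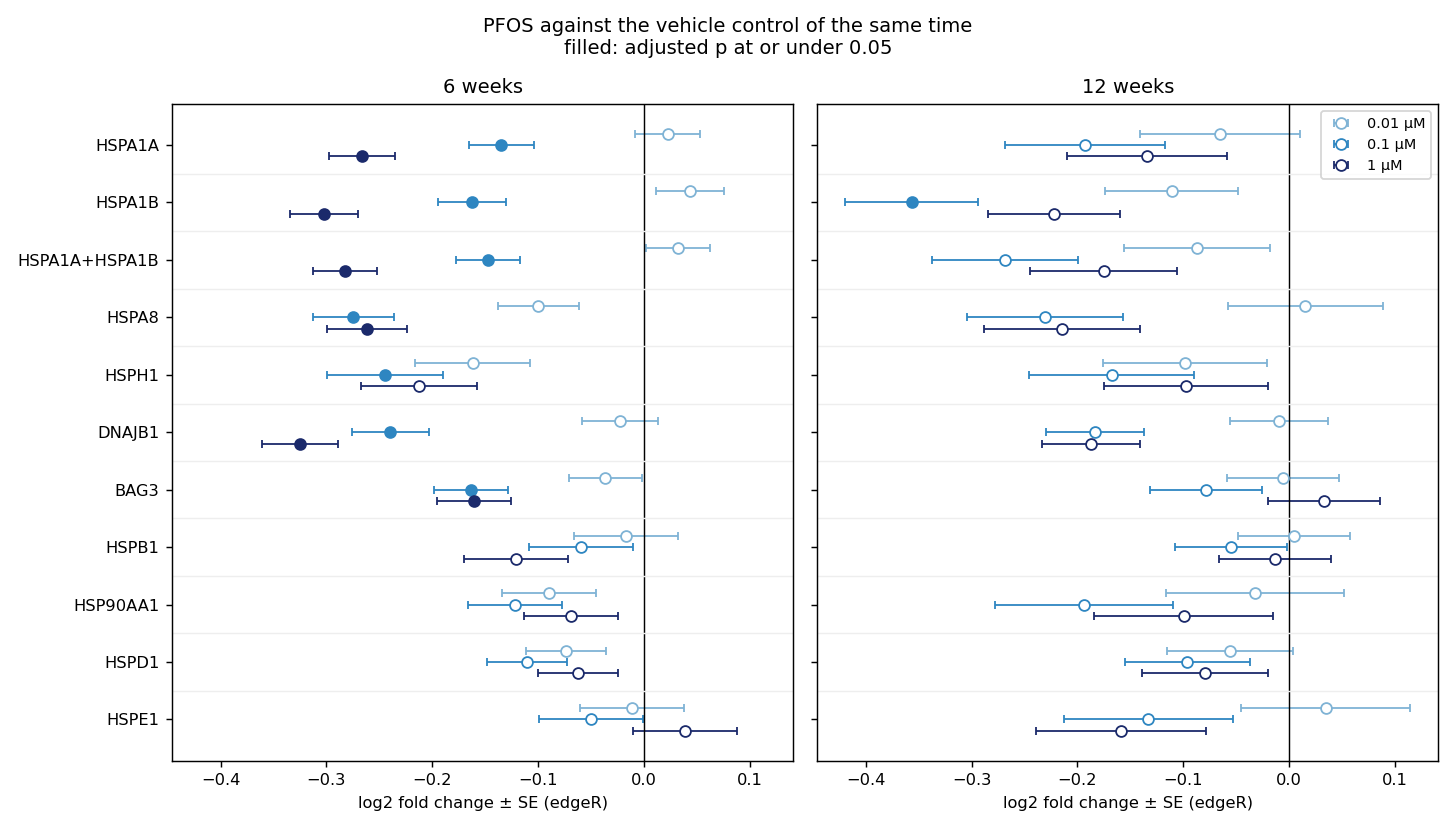
Log2 fold change ± SE (horizontal axis, edgeR) of each chaperone gene and of HSPA1A plus HSPA1B with 0.01, 0.1 and 1 µM PFOS against the vehicle control after 6 weeks (left) and 12 weeks (right), 4 libraries a group. Filled points have an adjusted p at or under 0.05: 6 genes with 0.1 µM and 5 with 1 µM at 6 weeks, and HSPA1B with 0.1 µM at 12 weeks.

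Whether these genes were called depended on the replicates kept, and leaving 1 out also leaves fewer libraries a group. Without replicate 3 of every group, 1 of 10 genes was called with 0.1 µM (HSPA8) and 3 with 1 µM (HSPA1A, HSPA1B and DNAJB1), beside 22 and 12 of all genes. Without replicate 4, 3 were called with 0.1 µM (HSPA1B, HSPA8 and DNAJB1), beside 77 of all genes. With 0.1 µM, BAG3 alone was lost without replicate 1, and HSPA1A was lost and HSPD1 gained without replicate 2, beside 128 and 570 of all genes called. The call of BAG3 with 1 µM was lost without replicate 1, 3 or 4 (edgeR adjusted p = 0.116, 0.359 and 0.297) and with only the 8 libraries compared (edgeR adjusted p = 0.0825). In the fit of all 32 libraries the chaperones called were HSPA8 and DNAJB1 with 0.1 µM and HSPA1B and DNAJB1 with 1 µM, beside 49 and 5 of all genes. With any 1 of the 4 replicates left out, the log2 fold changes of the called genes lay between -0.29 and -0.115 with 0.1 µM and between -0.35 and -0.14 with 1 µM. The liver transcripts listed above, at 0 to 1 counts in the control and with 0.01 µM, were present at 88 to 141 counts in the same libraries of 0.1 and 1 µM, and their part in the result was not tested.

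The concentrations were also compared with each other at 6 weeks. From 0.01 to 0.1 µM, 4 chaperones fell (HSPA1A, HSPA1B, HSPA8 and DNAJB1), beside 0.195% of all genes called lower, with log2 fold changes from -0.16 to -0.22 and edgeR adjusted p values from 0.00207 to 0.0421. The summed liver transcripts went from 0 to 1 counts with 0.01 µM to 89 to 141 with 0.1 µM. Their part in this difference was not tested. All 4 libraries of 0.1 µM lay below all 4 of 0.01 µM for 5 chaperones, as for 3.72% of all genes, the fifth being BAG3, which was not called (log2 fold change -0.13, SE 0.04, edgeR adjusted p = 0.15). Without single replicates, 0 to 2 of the 4 calls were made: 1 without replicate 1, 2 without replicate 4, and none without replicate 2 or 3. Over all genes, 16, 22, 5 and 6 were called in the same order, against 35 with all replicates. From 0.1 to 1 µM, none was called by edgeR, beside 0.0857% of all genes called in either direction. At an unadjusted p under 0.05 there were 3, beside 802 of all 12836 genes. DESeq2 and limma each called HSPA1A and HSPA1B, beside 25 and 8 of all genes. All 4 libraries of 1 µM were below all 4 of 0.1 µM for these 2 genes, as for 2.69% of all genes, with log2 fold changes of -0.13 (SE 0.03, edgeR adjusted p = 0.141) and -0.14 (SE 0.03, edgeR adjusted p = 0.122), and with the vial as a block HSPA1B was called (edgeR adjusted p = 0.0415). HSPA8 and BAG3 had log2 differences of 0.013 (SE 0.04) and 0.0028 (SE 0.04) between the 2 concentrations.

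Other genes of the pathway were read from 9 lists of 83 genes in all, of which 5 (HSPA6, HSPB2, HSPB7, HSPB11 and CRYAA) entered no test. HSPA6, a strictly inducible HSP70, had 1 to 11 counts per library. With 0.1 µM PFOS at 6 weeks, 22 of the 78 genes tested were called lower by edgeR and none higher, beside 2.69% and 1.55% of all genes. DESeq2 called 23, limma 13 and the fit of all 32 libraries none, beside 621, 298 and 49 of all genes. The median log2 fold change of the 78 was -0.08, against 0.0004 for all genes. The 22 included 5 of 8 subunits of TRiC, the cytosolic chaperonin, and 5 of 13 other HSP90 proteins and cofactors. They also included 5 of 16 other J-domain proteins, 3 of 9 other HSP70 and HSP110 proteins and 2 of 6 genes listed with the mitochondrial proteases. The rest were 1 of 4 other small heat shock proteins and 1 of 7 other HSF1 targets. None was among the 4 genes listed with the heat shock transcription factors or the 11 HSP70 cofactors. By p, the first were FKBP4 (log2 fold change -0.21, edgeR adjusted p = 0.00484), an HSP90 cochaperone of steroid receptors, CCT2 of TRiC (-0.18, edgeR adjusted p = 0.00911), the HSP90 activator AHSA1 (-0.17, edgeR adjusted p = 0.014), STIP1 (-0.19, edgeR adjusted p = 0.0158), which bridges HSP70 and HSP90, and HSPA9 (-0.17, edgeR adjusted p = 0.0164), the mitochondrial HSP70. HSF1, named for its role and not by p, had a log2 fold change of -0.09 (SE 0.04, edgeR adjusted p = 0.131). Without replicate 1, 3 or 4, the 22 calls became 3, 0 and 1, and the calls over all genes went from 544 to 128, 22 and 77. With 1 µM, edgeR called 1 of the 78 lower, beside 0.148% of all genes. It was MRPL18, an HSF1 target with a stress-induced cytosolic form (log2 fold change -0.21, SE 0.04, edgeR adjusted p = 0.0294), which was not called without replicate 1, 3 or 4. DESeq2 called 4 list genes and limma 8, beside 127 and 244 of all genes. None was called by edgeR with only the 8 libraries compared or with all 32 in a single fit. With 0.01 µM none was called by edgeR, DESeq2 or limma, and 11 had an unadjusted p under 0.05, beside 1232 of all 12836 genes.

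**Figure D3:**
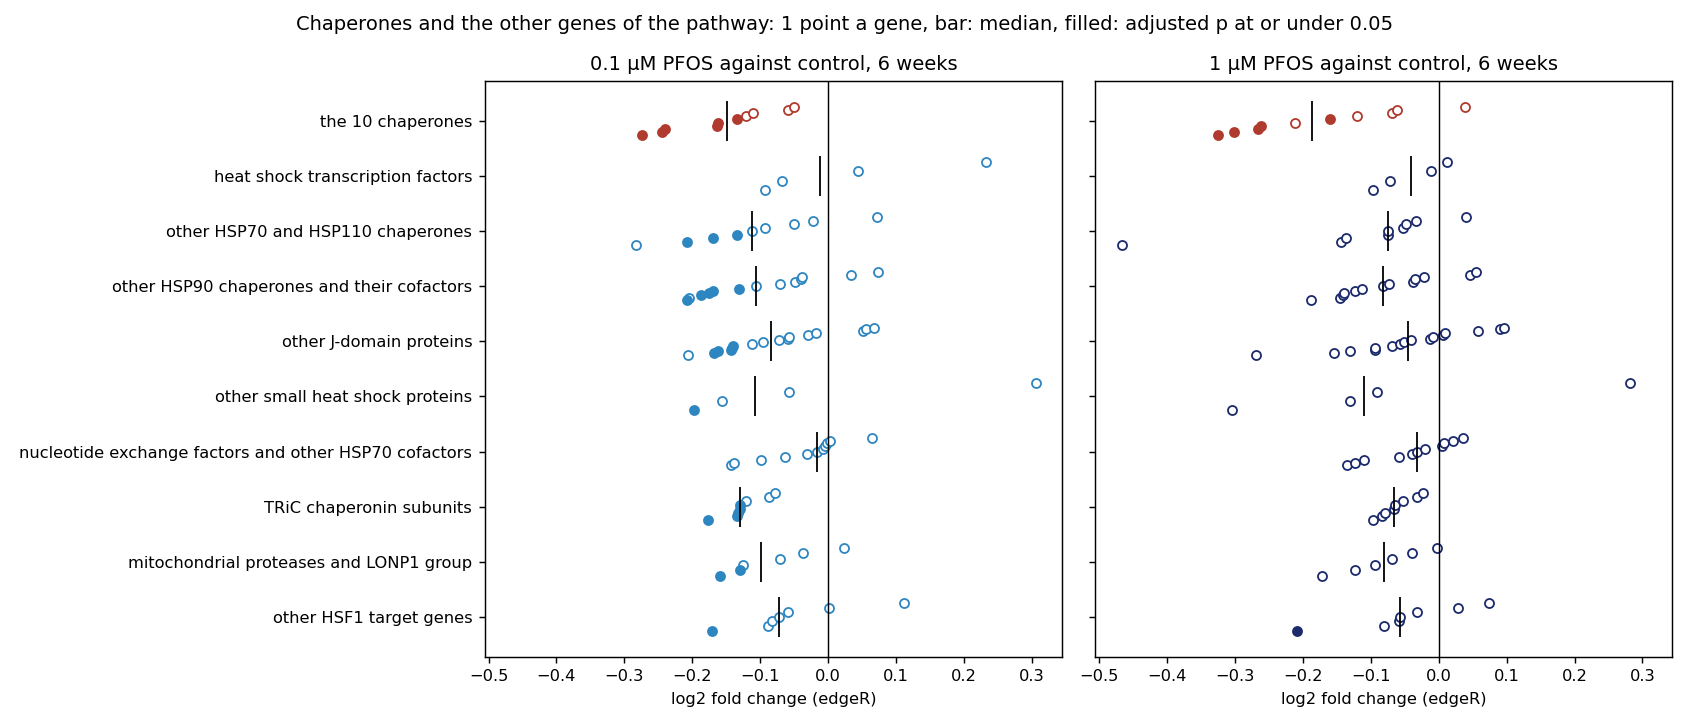
Log2 fold change (horizontal axis, edgeR) with 0.1 µM (left) and 1 µM PFOS (right) at 6 weeks of the 10 chaperones (red) and of the 78 other genes tested in 9 lists (blue). Each point is 1 gene, filled where the adjusted p is at or under 0.05, and the black bar is the median of the list. Filled points are all left of 0: 6 chaperones and 22 list genes with 0.1 µM, and 5 chaperones and 1 list gene with 1 µM.

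After 12 weeks, edgeR called 1 chaperone against the control of that time, HSPA1B with 0.1 µM. DESeq2 called 2 with 0.1 µM and 1 with 1 µM and limma none, and the fit of all 32 libraries called 3 (HSPA1B, HSPA8 and DNAJB1) and 2 (HSPA1B and DNAJB1). Over all genes DESeq2 called 278 and 90, limma 78 and 15, and the fit of all 32 libraries 540 and 136. HSPA1B had 375.8, 338.3, 344.1 and 327.1 CPM in the controls, 277.3, 256.1, 256.1 and 303.9 with 0.1 µM PFOS, and 294.6, 279.2, 314.4 and 316.1 with 1 µM. Both groups lay below the controls. HSPA1B fell by 21.9% with 0.1 µM (log2 fold change -0.36, SE 0.06, edgeR adjusted p = 0.0064), beside 0.542% of all 12742 genes tested that were called lower, and its difference of -14.3% with 1 µM was not called (edgeR adjusted p = 0.184). The call with 0.1 µM was lost without replicate 2 (edgeR adjusted p = 0.0548) or replicate 3 (edgeR adjusted p = 0.17) and with limma (adjusted p = 0.0502), but not without the control library that was rich in liver transcripts (log2 fold change -0.36, edgeR adjusted p = 0.0253). The split between the near-identical genes differed as well, since HSPA1A took 54.6% to 55.8% of their sum with 0.1 µM and 51.8% to 53.1% in the controls. The log2 fold change of HSPA1A was -0.19 (SE 0.08, edgeR adjusted p = 0.232) and that of the sum was -0.27 (SE 0.07, edgeR adjusted p = 0.0622).

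DNAJB1 had 156.2, 152.1, 158.9 and 153 CPM in the controls of 12 weeks, 141.1, 134.1, 128.5 and 148.3 with 0.1 µM, and 138, 134.1, 139.5 and 140.8 with 1 µM. Neither exposed group overlapped with the controls (2 chaperones with 0.1 µM, as 2.95% of all genes), and the log2 fold changes of -0.18 (SE 0.05, edgeR adjusted p = 0.0555) and -0.19 (SE 0.05, edgeR adjusted p = 0.117) were not called by edgeR, while DESeq2 called both (adjusted p = 0.0102 and 0.0181). HSPA8 had a log2 fold change of -0.23 (SE 0.07, edgeR adjusted p = 0.139) with 0.1 µM, where replicate 4 reached 1714 CPM and the others 1388 to 1454, and of -0.21 (SE 0.07, edgeR adjusted p = 0.349) with 1 µM. HSPH1, called at 6 weeks, had a log2 fold change of -0.17 (SE 0.08) with 0.1 µM, and BAG3 one of -0.08 (SE 0.05), neither called. BAG3 had a log2 fold change above 0 with 1 µM (0.03, SE 0.05, edgeR adjusted p = 0.88). With 1 µM, 5 chaperones (HSPA1B, HSPA8, DNAJB1, HSPD1 and HSPE1) had all 4 libraries below the controls, as had 2.35% of all genes. None was called by edgeR, beside 0.22% of all genes, and 0 by limma. At an unadjusted p under 0.05 there were 3, beside 1115 of all 12742 genes. With 0.01 µM none was called by edgeR, DESeq2 or limma, and none had an unadjusted p under 0.05, beside 1080 of all genes. The median log2 fold changes of the 10 genes were -0.02, -0.18 and -0.12 at 0.01, 0.1 and 1 µM, against 0.0023, -0.0047 and -0.0041 for all genes. Of the 77 list genes tested, none was called by edgeR at any concentration. At an unadjusted p under 0.05 there were 7, 13 and 8, beside 1080, 1956 and 1115 of all 12742 genes. DESeq2 called 0, 2 and 1 of the list genes, and limma 0. Over all genes DESeq2 called 4, 278 and 90 at these concentrations. Between neighbouring concentrations at 12 weeks edgeR and limma called no chaperone and no list gene. DESeq2 called HSPA1B, HSPA8 and DNAJB1 lower with 0.1 than with 0.01 µM, and 1 list gene, beside 148 of all genes. There edgeR had 4 chaperones at an unadjusted p under 0.05, beside 1891 of all genes. DESeq2 called none between 0.1 and 1 µM, where edgeR had 2 at that threshold, beside 984 of all genes.

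Whether the effect of PFOS differed between the 2 times was tested as an interaction over all 32 libraries and 12988 genes. No chaperone and no list gene was called at any concentration by edgeR or DESeq2. edgeR gave 1, 1 and 2 chaperones an unadjusted p under 0.05 for 0.01, 0.1 and 1 µM. Over all genes it did so for 972, 1879 and 1571. limma on TPM called DNAJB1 and BAG3 for 1 µM, and 4 list genes, beside 605 of all 12988 genes. The median log2 difference over all genes was 0.0992 there by limma and -0.0005 by edgeR. By edgeR the interaction over all genes was called for 0%, 0.208% and 0.123%. For HSPA1B the log2 change was more negative at 12 than at 6 weeks by 0.19 (SE 0.07, edgeR adjusted p = 0.189) with 0.1 µM. For BAG3 with 1 µM it was higher at 12 weeks by 0.20 (SE 0.06, edgeR adjusted p = 0.194). That change of BAG3 against the control was -0.16 at 6 weeks and 0.03 at 12 weeks. For the sum of HSPA1A and HSPA1B the differences of the log2 changes, 12 minus 6 weeks, were -0.12, -0.13 and 0.11 (SE 0.08 each), and none was called (edgeR adjusted p = 0.748, 0.45 and 0.598).

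The 2 times were compared within each exposure to describe the culture itself. HSPB1 rose in all 4 exposures, with log2 fold changes of 0.29 in the control, 0.32 with 0.01 µM, 0.29 with 0.1 µM and 0.40 with 1 µM (SE 0.05 each, edgeR adjusted p from 1.94e-07 to 2.72e-05). In the controls it went from 781.8, 801, 879.8 and 958.2 CPM at 6 weeks to 1044, 1070, 1010 and 1020.5 at 12 weeks, without overlap, as for 12.9% of all genes. The times also differed in many other genes: 17.3%, 21.4%, 19.7% and 14.2% of all genes tested were called higher at 12 weeks in the control and with 0.01, 0.1 and 1 µM, and 19.3%, 21.3%, 20.6% and 15.9% lower. Of the 10 chaperones, edgeR called 3 higher and 1 lower in the control, 4 and 1 with 0.01 µM, 2 and 0 with 0.1 µM, and 4 and 0 with 1 µM. In the same order limma called 3, 2, 1 and 7 in either direction, beside 4633, 5184, 4719 and 3971 of all 12988 genes. By the counts given above, the 4 endothelial markers, mainly KDR, were lower in all libraries of 12 weeks, and the 4 leukocyte markers, mainly CD68 with CD3E at 0 in every library, had a lower range that overlapped with that of 6 weeks. The liver transcripts were higher at 12 weeks in the control and with 0.01 µM. The part of these transcripts in the results was not tested. Samples of the 2 times differ in time in culture and in any step done at the time of harvest, which cannot be told apart.

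Of the other chaperones, HSPA1B rose in the control from 304.2 ± 4.09 to 346.3 ± 20.9 CPM (log2 fold change 0.20, SE 0.05, edgeR adjusted p = 0.00179), which limma did not call (adjusted p = 0.0833), and with 1 µM from 246.4 ± 7.42 to 301.1 ± 17.5 (log2 fold change 0.28, SE 0.05, edgeR adjusted p = 4.43e-05). In the control the near-identical HSPA1A had a log2 fold change of 0.097 (SE 0.06) and was not called (edgeR adjusted p = 0.204). The sum of both went from 665.2 ± 9.85 to 728.5 ± 52.4 CPM there (log2 fold change 0.15, SE 0.05, edgeR adjusted p = 0.0297), a call lost without replicate 1, 2 or 3 (edgeR adjusted p = 0.302, 0.0662 and 0.0923), without the control library rich in liver transcripts (edgeR adjusted p = 0.054) and with limma (adjusted p = 0.418). HSPA1A and DNAJB1 rose with 1 µM by 0.23 (SE 0.06, edgeR adjusted p = 0.00286) and 0.20 (SE 0.04, edgeR adjusted p = 0.000283) on the log2 scale, and DNAJB1 with 0.1 µM by 0.11 (SE 0.04, edgeR adjusted p = 0.0246). BAG3 went the other way and fell by 0.17 (SE 0.04, edgeR adjusted p = 0.00235) in the control and by 0.14 (SE 0.04, edgeR adjusted p = 0.0121) with 0.01 µM. Its controls had 106.4 to 113.6 CPM at 6 weeks and 93.6 to 102.5 at 12 weeks, so the groups did not overlap, as for 18.4% of all genes. HSP90AA1 rose in the control (log2 fold change 0.19, SE 0.07, edgeR adjusted p = 0.0315) and with 0.01 µM (0.26, SE 0.07, edgeR adjusted p = 0.00404), HSPA8 rose with 0.01 µM (0.19, SE 0.06, edgeR adjusted p = 0.00839) and so did HSPD1 (0.12, SE 0.05, edgeR adjusted p = 0.0487, and 0.0536 with the vial as a block). Without the control library rich in liver transcripts, HSP90AA1 in the control and HSPD1 with 0.01 µM were not called (edgeR adjusted p = 0.0524 and 0.0554). HSP90AA1 in the control was also not called without replicate 1, 3 or 4 of every group (edgeR adjusted p = 0.152, 0.0604 and 0.0673), nor DNAJB1 with 0.1 µM without replicate 1, 2 or 4 (0.232, 0.0558 and 0.105). Without replicate 2 or 4, 2 and 1 of the 5 calls with 0.01 µM were made, beside 4567 and 4404 of all genes. edgeR called neither HSPH1 nor HSPE1 in any exposure. HSPH1 was called lower in the control by limma (adjusted p = 0.0188) and by edgeR with only the 8 libraries compared (adjusted p = 0.0212). HSPE1 was called lower with 1 µM with only the 8 libraries (edgeR adjusted p = 0.0462) or without replicate 4 (edgeR adjusted p = 0.0266), and higher with 0.01 µM without replicate 1 (edgeR adjusted p = 0.0378).

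Other small heat shock proteins did not share the course of HSPB1. HSPB6 fell in all 4 exposures, with log2 fold changes of -1.42, -1.45, -1.825 and -1.37 (edgeR adjusted p from 4.51e-06 to 0.000178), and HSPB8 fell by 0.27 to 0.36 (edgeR adjusted p from 3.11e-05 to 0.000846). DNAJA4, a J-domain protein, fell by 0.85, 0.95, 0.77 and 0.56 (edgeR adjusted p from 4.43e-09 to 4.6e-05). Higher at 12 weeks in all 4 exposures were the HSP110 protein HSPA4L (log2 fold change 0.20 to 0.33), the mitochondrial HSP90 protein TRAP1 (0.17 to 0.26) and the TRiC subunit CCT7 (0.16 to 0.25). Of the 78 list genes tested, edgeR called 12 higher and 12 lower in the control, beside 17.3% and 19.3% of all genes, and 24 and 13 with 0.01 µM, beside 21.4% and 21.3%. It called 21 and 12 with 0.1 µM, beside 19.7% and 20.6%, and 9 and 7 with 1 µM, beside 14.2% and 15.9%.

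**Figure D4:**
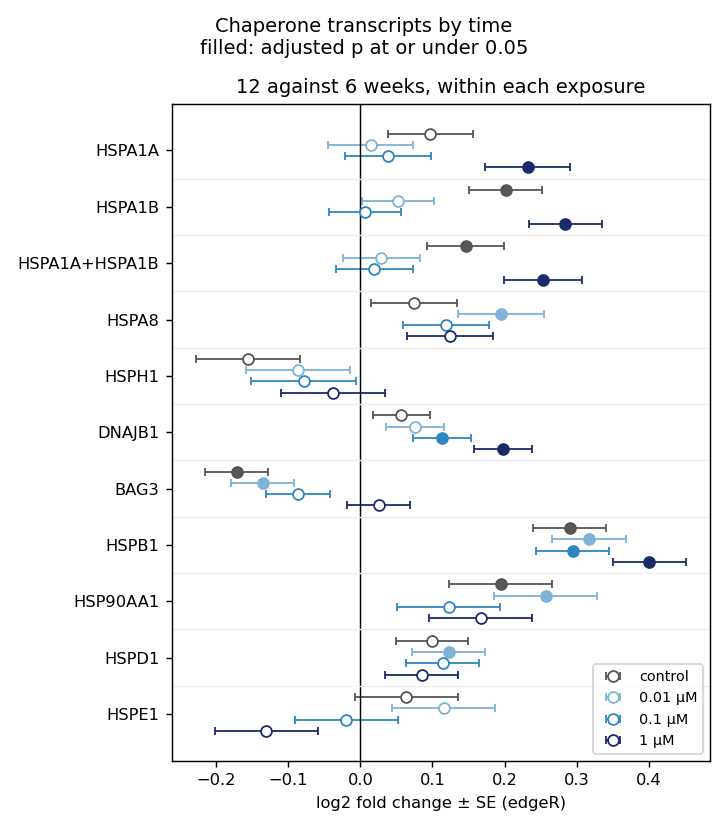
Log2 fold change ± SE (horizontal axis, edgeR) at 12 against 6 weeks of each chaperone gene and of HSPA1A plus HSPA1B in the control and with 0.01, 0.1 and 1 µM PFOS, 4 libraries a group. Filled points have an adjusted p at or under 0.05, and HSPB1 is filled and right of 0 in all 4 exposures.

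The chaperones varied together in part. Over the 32 libraries the 45 pairs of genes had a median Pearson r of 0.47 in log2(CPM + 1), and of 0.416 once each group's mean was taken out, so that only differences between vials within a group were left. These values are given as a description, since libraries of a group share medium and time and all genes of a library share its depth. Within groups, HSPA8, HSP90AA1, HSPD1, HSPE1 and HSPH1 varied together, with r of 0.887 for HSPA8 and HSP90AA1, 0.862 for HSPA8 and HSPD1, and 0.58 for HSPH1 and HSPE1, the lowest of their pairs. HSPA1A and HSPA1B had r of 0.855 with each other but 0.198 and 0.096 with HSPA8, and 0.49 and 0.555 with DNAJB1. HSPB1 had r between -0.348 (HSPE1) and 0.442 (HSPA1A). HSPD1 and HSPE1, whose promoters share 204 bases, had r of 0.564 over all libraries and 0.788 within groups. Replicate 4 of 0.1 µM at 12 weeks was the library in which the 10 genes stood highest above their group's mean, by 0.148 on average on the log2 scale, and the others lay between -0.084 and 0.07.

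Among 9625 genes with a mean of at least 10 CPM, the 3 whose levels over the 32 libraries were most like those of HSPA1B were HSPA1A (r = 0.921), DNAJB1 (0.887) and CSRNP1 (0.777). For HSPA1A they were HSPA1B, DNAJB1 (0.826) and STIP1 (0.696). For DNAJB1 they were HSPA1B, HSPA8 (0.851) and HSPA1A (0.826), and for HSPA8 they were the J-domain protein gene DNAJA1 (0.885), CCT3 of TRiC (0.861) and DNAJB1. HSP90AA1 and HSPD1 were most like each other (0.884), followed by FABP5 (0.861) for the former and CCT6A (0.873) for the latter. For HSPB1, BAG3, HSPH1 and HSPE1, as for HSPA8, the most like gene was none of the 10. HSPB1 was most like TUBB3 (0.954), PYCR1 (0.948) and AIF1L (0.947), BAG3 most like LRFN4 (0.887), HSPH1 most like TAGLN (0.85) and HSPE1 most like BCCIP (0.775).

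**Figure D5:**
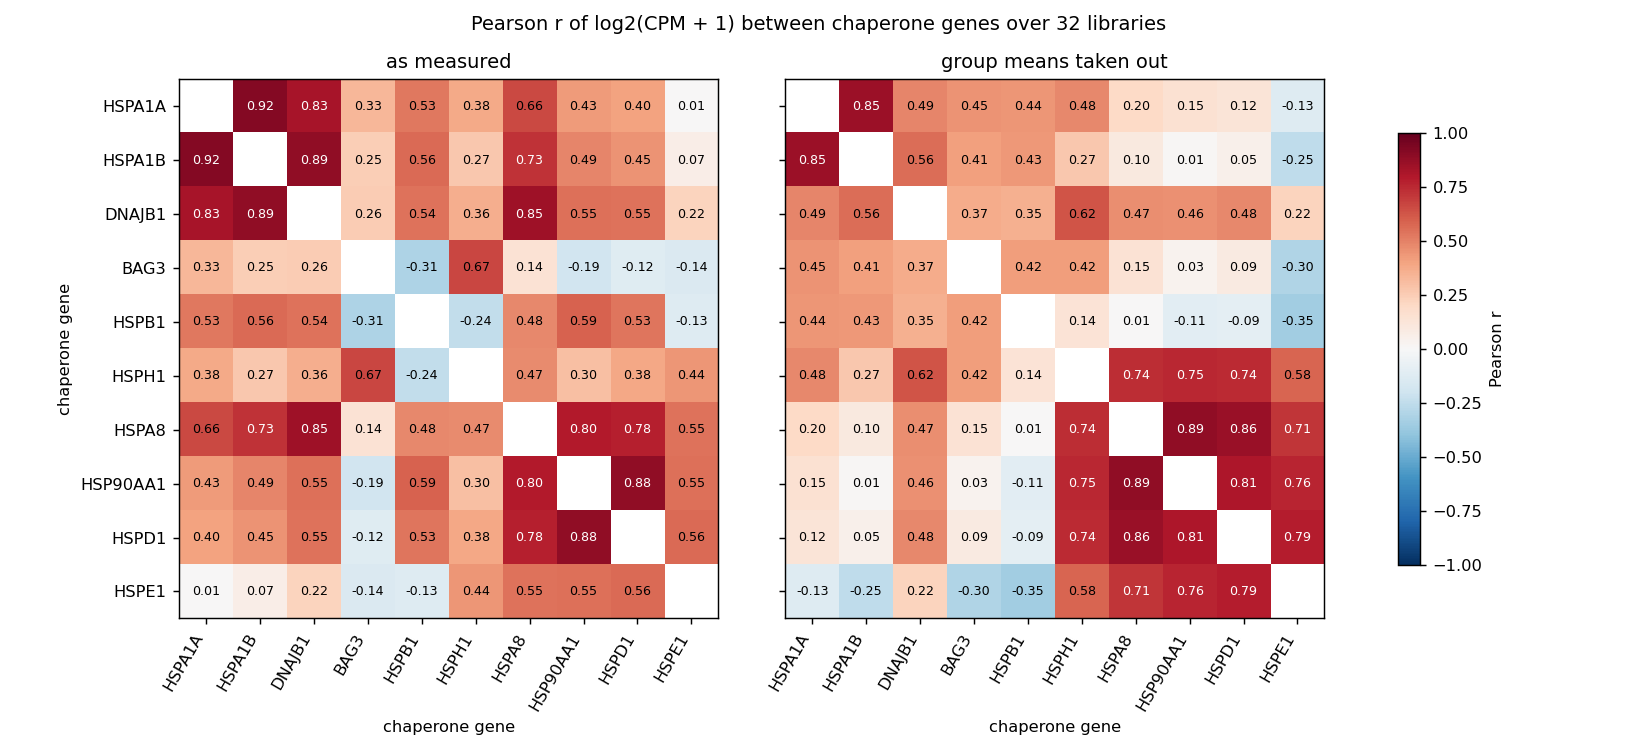
Pearson r between the 10 chaperone genes in log2(CPM + 1) over 32 libraries, as measured (left) and with group means taken out (right). Each cell is 1 pair of genes, red above 0 and blue below. On the right HSPH1, HSPA8, HSP90AA1, HSPD1 and HSPE1 form a block with r from 0.58 to 0.887, apart from HSPA1A and HSPA1B (0.855).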

How the data were processed

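Stranded poly(A) RNA libraries of HGrC1 cells were sequenced on the DNBSEQ platform. According to the submitters' processing notes, the tools were HISAT2 2.0.4, Bowtie2 2.2.5 and RSEM 1.2.8 with GRCh38.p14; the strand setting of the counting is not given in the sources used here. The deposited tables hold RSEM expected counts per gene, as estimated by the authors, and TPM values that the authors scaled to 1000000 per library. Of 47137 gene entries, 18583 had values.

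Expected counts were rounded and tested with edgeR 4.0.16 (R 4.3.3; TMM scaling, filterByExpr, robust quasi-likelihood test, Benjamini-Hochberg adjustment over all genes tested, call at 0.05). Each PFOS comparison used the 16 libraries of its time, and comparisons of the 2 times and the interactions used all 32. A DEG also had to change 2-fold. CPM values are counts per 1000000 of the total count of a library, percent changes come from the fitted log2 fold changes, and exact two-sided permutation tests used log2(CPM + 1). Total counts per library were 17907057 to 18553350. Alternatives were DESeq2 1.42.0, limma 3.58.1 on log2(TPM + 1), RLE scaling, no filter, the vial as a block, other sets of libraries and leaving out each replicate. The comparisons between neighbouring concentrations and the fits without 1 control library were added after seeing the data.

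Each vial's cells were divided over the exposures, so equal replicate numbers were taken to mark a shared vial, which the labels do not state. Same-numbered libraries of 2 groups had mean correlations of their deviations of 0.058 to 0.166 at 6 weeks and -0.285 to 0.18 at 12 weeks. All 48 pairs of replicates differed beyond sampling noise (chi-square per degree of freedom 2.35 to 16.9). The vials come from 1 line, so p-values measure the spread between these vials. The 10 genes and all lists were chosen with earlier results of these data known. Named genes are the 10 chaperones, in each comparison at most the 5 list genes called with the lowest p, and the 3 genes most correlated with each chaperone. HSF1 lies outside this rule and was chosen after its values were seen. On simulated data for 1 µM at 6 weeks (12786 genes), 100 of 103 genes changed 2-fold and 97 of 97 changed 4-fold were recovered, with 13 false calls. Promoter sequences are from RefSeq on GRCh38.p14.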

Additional observations from a re-analysis of the deposited data

Results flagged for a closer look

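In 4 of 88 groups of 4 libraries, 1 library lay far from the other 3 by Dixon's test at 95%, which chance gives in about 1 in 20 groups. HSPH1 had 161.8 CPM in replicate 4 of 0.1 µM PFOS at 12 weeks, and 123.2 to 129 in the others. BAG3 had 100.3 CPM in the same library, and 91.12 to 91.61 in the others. DNAJB1 had 142.8 CPM in replicate 4 of 0.01 µM at 6 weeks, below the 149.9 to 151 of the others. HSPD1 had 471.3 CPM in replicate 3 of 1 µM at 12 weeks, above the 458.8 to 459.4 of the others.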

How the results depend on the processing

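Of 342 alternative values for single chaperones that were called, 270 kept their direction and call, 72 kept their direction but missed the threshold, and none changed sign. With all 32 libraries in one fit, 2 chaperones were called with 0.1 µM and 2 with 1 µM at 6 weeks, 3 and 2 at 12 weeks, and 0 and 3 between 0.01 and 0.1 µM at 6 and 12 weeks. Over all genes the calls in the same order were 49, 5, 540, 136, 0 and 415. List genes called there were 0, 0, 3, 2, 0 and 4, and HSPA1A plus HSPA1B with 0.1 µM had log2 fold changes of -0.14 at 6 weeks (edgeR adjusted p = 0.187) and -0.27 at 12 weeks (edgeR adjusted p = 0.00215). With the replicate block, 1 chaperone was called from 0.1 to 1 µM at 6 weeks, HSPD1 at 12 against 6 weeks with 0.01 µM was lost, and no other call on a chaperone changed. DESeq2 called 2 chaperones from 0.1 to 1 µM at 6 weeks, 2 and 1 with 0.1 and 1 µM at 12 weeks and 3 from 0.01 to 0.1 µM at 12 weeks, beside 25, 278, 90 and 148 of all genes. It called 4 list genes with 1 µM and 3 from 0.01 to 0.1 µM at 6 weeks, and 2, 1 and 1 with 0.1 µM, with 1 µM and from 0.01 to 0.1 µM at 12 weeks, and the sum with 0.1 µM at 12 weeks (-0.27, DESeq2 adjusted p = 0.0138).

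limma called 2 chaperones from 0.1 to 1 µM at 6 weeks, 0 with 0.1 µM at 12 weeks, 2, 1 and 7 at 12 against 6 weeks with 0.01, 0.1 and 1 µM, and 2 in the interaction of 1 µM. Over all genes limma called 8, 78, 5184, 4719, 3971 and 605 there. It called 13 and 8 list genes with 0.1 and 1 µM at 6 weeks, beside 298 and 244 of all genes, and 4 in that interaction. At 12 against 6 weeks it gave the sum 0.067 in the control (limma adjusted p = 0.418) and -0.053 with 0.01 µM, a change of sign. The median over all genes was -0.0582 and -0.0612 there by limma, and 0.004 and 0.0104 by edgeR. With only the 8 libraries compared, 2 and 1 chaperones were called at 12 against 6 weeks with 0.01 and 0.1 µM. Over all genes 4390 and 5597 were called there. In such fits 0 list genes were called with 1 µM and 0 from 0.01 to 0.1 µM at 6 weeks, beside 32 and 29 of all genes. The latter were also 0 without the filter, beside 34 of all genes. Without replicate 3 of the 12-week control, the sum at 12 against 6 weeks was 0.14 (edgeR adjusted p = 0.054).

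Leaving out each replicate, or replicate 3 of the 12-week control, gave 1 to 6 chaperones with 0.1 µM, 3 to 6 with 1 µM and 0 to 2 from 0.01 to 0.1 µM at 6 weeks, 0 to 1 with 0.1 µM at 12 weeks, and 1 to 5 and 1 to 3 at 12 against 6 weeks with 0.01 and 0.1 µM. Over all genes the calls at 6 weeks were 22 to 570, 12 to 178 and 5 to 22. They were 4 to 315 with 0.1 µM at 12 weeks, and 4298 to 5560 and 4041 to 5233 at 12 against 6 weeks. List genes called were 0 to 21, 0 to 5 and 0 to 0 in the same comparisons at 6 weeks, 0 to 1 with 0.1 µM and 0 to 1 from 0.01 to 0.1 µM at 12 weeks, and 8 to 16 at 12 against 6 weeks with 1 µM. From 0.01 to 0.1 µM at 12 weeks, 0 to 394 of all genes were called. With 1 µM at 12 against 6 weeks, 2498 to 3915 of all genes were. The sum was -0.16 to -0.13 with 0.1 µM at 6 weeks, 0.085 to 0.19 at 12 against 6 weeks in the control, -0.0033 to 0.063 with 0.01 µM and -0.029 to 0.0499 with 0.1 µM, where the negative values came without replicate 1 and without replicate 4. The causes were not tested. With 4 vials a group, chaperone differences were at most 0.40 on the log2 scale, below the smallest change tested on simulated data.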
